A study of Mus musculus with 19 samples.

Results

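Interferon beta (Ifnb1) and 4 chemokines, Cxcl9, Cxcl10, Cxcl11 and Cxcl16, were described across cultured B16-F10 cells and across the cells of B16-F10 tumours, with and without a knockout of Mettl5. The 5 genes were chosen by name, and all 5 of 5 were listed among the 55359 genes of the input RNA and footprint count tables and among the 33696 genes of the single-cell tables. METTL5 puts a methyl group on an adenosine of 18S ribosomal RNA, and B16-F10 is a mouse melanoma line derived from C57BL/6 mice. The groups were Mettl5 KO cells and cells with a scrambled control (SCR), kept in DMEM with serum, and tumours of each of them in mice; cells for footprints were also given cycloheximide, which halts ribosomes. Culture libraries were 2 of input RNA and 2 of ribosome footprints for each genotype, and tumours gave 1 single-cell library for each genotype, from live cells sorted for CD45, the surface protein of blood cells. The labels do not say whether the KO cells were 1 clone or a pool, how many tumours entered a single-cell library or the age of the mice, and they state the knockout for the tumour cells, not for the host. Whether replicates were separate cultures is not in the labels, and p-values then measure only the spread between these libraries, which may be technical. Library totals ran from 38968000 to 48692578 counts for input RNA and from 14555963 to 31301806 for footprints. After filtering, the single-cell libraries held 8239 SCR cells of median 8906 UMIs (unique molecular identifiers, 1 per captured RNA molecule) and 8361 KO cells of median 8035 UMIs. The libraries shared 116 cell barcodes, and Ptprc, the gene of CD45, had a UMI in 76.6% of SCR and 75.9% of KO cells.

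Interferon beta is a cytokine that a cell secretes after its sensors of foreign or misplaced nucleic acid, such as RIG-I, MDA5 and cGAS, activate the factors IRF3, IRF7 and NF-kappaB. It binds the receptor of IFNAR1 and IFNAR2 and, through JAK kinases and a complex of STAT proteins with IRF9, switches on interferon-stimulated genes. CXCL9, CXCL10 and CXCL11 are chemokines induced by interferons that draw T cells and NK cells through the receptor CXCR3; CXCL9 depends mainly on interferon gamma, whereas CXCL10 also follows type I interferon and NF-kappaB. CXCL16 is not a ligand of CXCR3: it is made as a membrane protein, is shed by the proteases ADAM10 and ADAM17, and binds CXCR6. The Cxcl11 gene of C57BL/6 mice carries a frameshift and makes no full protein, and RefSeq lists it as a transcribed pseudogene.

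RefSeq start-site sequences matched 3 of the 5 genes, and a stretch from 220 to 71 bases before each annotated start is shown. It was chosen because Ifnb1 and Cxcl10 hold exact matches there to motifs of IRF and NF-kappaB factors, and Cxcl9 holds none. Near matches were not searched for, so the Cxcl9 stretch is not shown to lack letters that these factors read. Builds and strands are GRCm38.p6, minus strand, for Ifnb1 at chr4:88522865-88523014, Cxcl9 at chr5:92328150-92328299 and Cxcl10 at chr5:92348960-92349109. Capitals mark a match to the interferon-stimulated response element (GAAA, any 2 bases, GAAA), to the shorter IRF core AANNGAAA or to the NF-kappaB motif, searched on both strands of the 250 bases before the start.
Ifnb1: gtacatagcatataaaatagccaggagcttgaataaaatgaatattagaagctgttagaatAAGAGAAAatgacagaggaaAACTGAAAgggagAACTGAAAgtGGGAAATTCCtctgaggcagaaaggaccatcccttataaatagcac
Cxcl9: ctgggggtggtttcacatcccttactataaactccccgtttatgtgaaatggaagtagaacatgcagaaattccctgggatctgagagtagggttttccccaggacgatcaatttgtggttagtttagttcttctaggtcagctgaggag
Cxcl10: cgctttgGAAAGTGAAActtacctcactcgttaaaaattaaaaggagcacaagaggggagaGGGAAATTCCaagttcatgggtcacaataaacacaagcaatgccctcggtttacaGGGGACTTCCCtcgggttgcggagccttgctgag
The Ifnb1 stretch held 3 IRF cores, AAGAGAAA from 159 to 152 and AACTGAAA from 139 to 132 and from 126 to 119 bases before the start, followed by the NF-kappaB match GGGAAATTCC from 116 to 107. The Cxcl10 stretch held the response element GAAAGTGAAA from 213 to 204, which contains an IRF core, the same NF-kappaB letters GGGAAATTCC from 159 to 150, and 2 overlapping NF-kappaB matches from 104 to 94. No match to these 3 motifs was in the 250 bases of Cxcl9, and the interferon-gamma-activated site TTCNNNGAA was in none of the 3 windows. Over 32851 RefSeq windows of 250 bases, the response element was in 2.98%, the IRF core in 21.3%, the NF-kappaB motif in 7.25% and the interferon-gamma-activated site in 7.02%. A match describes these letters and is not a measured site.

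In cultured cells, Cxcl10 was the member with a measurable level, and it was higher in KO than in SCR cells both in input RNA and on ribosomes. Ifnb1 and Cxcl9 had no read in the input RNA of any library, and Cxcl11 and Cxcl16 had at most 16 reads. Mettl5, checked first, was at 6.22 and 6.15 CPM (counts scaled to the total of their library) in the KO and 9.47 and 9.61 CPM in the SCR input RNA libraries. Its log2 fold change was -0.56 (SE 0.13, adjusted p = 0.0284, edgeR quasi-likelihood F test with Benjamini-Hochberg adjustment, n = 2 per genotype), and in footprints -0.35 (SE 0.09, adjusted p = 0.112 by the same test). Without the first KO, the first SCR or the second SCR library, the adjusted p in input RNA was 0.0545, 0.122 or 0.116, and with no filter on low counts 0.0604, so the call was lost in each. The position of the edit is not in the labels, so a count over the whole gene checks the knockout only in part.

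Cxcl10 counts in input RNA were 554 and 614 in the KO and 359 and 389 in the SCR libraries, which is 11.4 and 14.1 against 9.21 and 9.03 CPM. Both KO libraries lay above both SCR libraries. The log2 fold change was 0.55 (SE 0.13, adjusted p = 0.0341, edgeR quasi-likelihood F test, n = 2), a 1.46-fold rise. In this comparison 16.8% of 20025 genes passed the test, 9.56% of them upward. The Cxcl10 call was lost without the second KO library (0.41, adjusted p = 0.0677), the first SCR library (0.55, adjusted p = 0.134) or the second SCR library (0.53, adjusted p = 0.126), and with no filter on low counts (0.55, adjusted p = 0.0853, all edgeR).

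In footprints, the short mRNA pieces that ribosomes protect from nuclease, Cxcl10 had 1376 and 2068 counts in the KO and 1454 and 1761 in the SCR libraries. Scaled to depth, these were 94.5 and 96.8 CPM against 51.8 and 56.3 CPM, again with no overlap of the genotypes. The log2 fold change was 0.71 (SE 0.07, adjusted p = 0.0319, edgeR quasi-likelihood F test, n = 2), a 1.64-fold rise, where 2.29% of 16878 genes passed, 0.51% upward and 1.78% downward. Leaving out any 1 footprint library kept the log2 fold change between 0.63 and 0.78 and ended the call, with adjusted p between 0.0949 and 0.12 in edgeR; 25 to 128 genes then passed. Translational efficiency, the change in footprints over that in input RNA fitted as an interaction over the same 8 libraries, had a log2 fold change of 0.13 for Cxcl10 (SE 0.14, adjusted p = 0.714, edgeR). In the authors' deposited table Cxcl10 has footprints over input RNA of 3.54 (SCR) and 3.83 (KO), a log2 fold change of 0.11 and an adjusted p of 0.815. The test of translational efficiency called 4.19% of 23211 genes, 0.788% upward and 3.4% downward.

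Cxcl16 had 12 and 12 reads in the KO and 14 and 16 in the SCR input RNA libraries (0.246 and 0.275 against 0.359 and 0.371 CPM). Its genotypes did not overlap, but the log2 fold change of -0.42 (SE 0.49) had an adjusted p of 0.608 in edgeR. No footprint of Cxcl16 was counted in any library, which allows up to 0.0958 CPM in the deepest and 0.206 CPM in the shallowest footprint library at 3 counts. Cxcl11 had 7 and 6 reads in KO and 4 and 7 in SCR input RNA, and 2, 2, 3 and 4 footprints, so its genotypes overlapped or were separated by 1 read. The 0 reads of Ifnb1 and Cxcl9 in input RNA allow up to 0.0616 to 0.077 CPM at 3 counts, and their footprints were 1 and 3 (KO) and 2 and 2 (SCR) for Ifnb1 and 0, 0, 4 and 0 for Cxcl9, the 4 in the first SCR library. Of the 5 members, 2 passed the low-count filter of input RNA and 1, Cxcl10, that of footprints. Of 25309 open reading frames that the authors list, 1 belonged to a member. It was the annotated frame of Cxcl10 of 98 codons at chr5:92495229-92496673 (GRCm39, minus strand, 4 blocks).

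**Figure D1:**
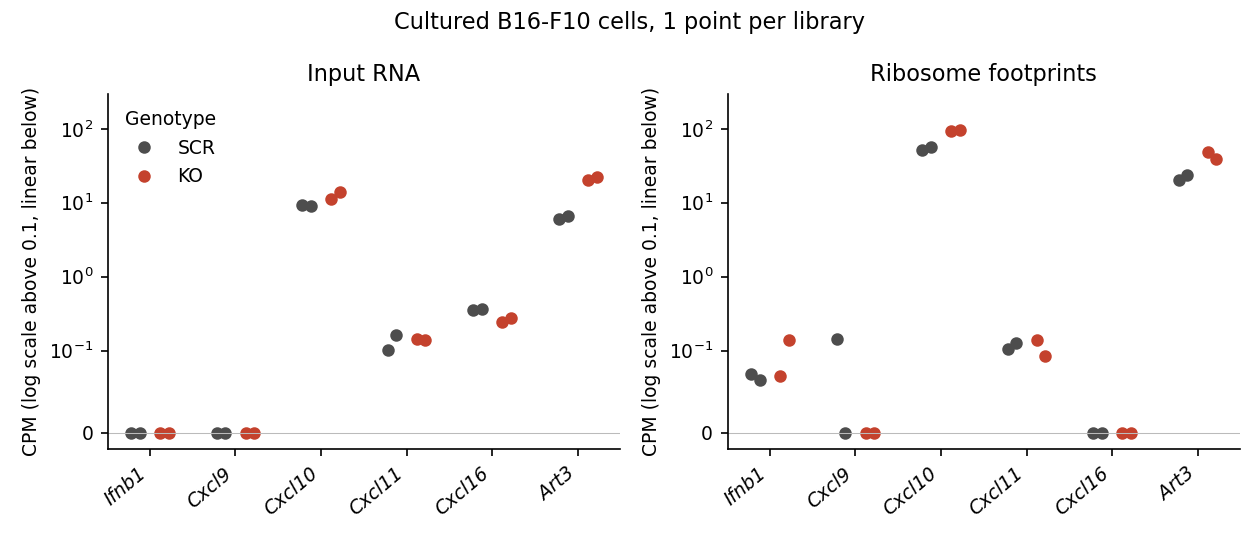
Level in CPM of the 5 genes and of Art3 in each library of cultured cells, input RNA at left and ribosome footprints at right, on an axis that is logarithmic above 0.1 and linear below; each point is 1 library. Cxcl10 lies between 9.03 and 14.1 CPM in input RNA and between 51.8 and 96.8 CPM in footprints, with KO above SCR in both.

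Cxcl10 and Cxcl11 lie within the span of Art3, a gene of the other strand that encodes an ADP-ribosyltransferase-like protein, and the strand setting of the counting is not stated in the labels. Art3 counts were 991 and 978 in KO against 235 and 281 in SCR input RNA. Its log2 fold change of 1.83 (adjusted p = 0.000459, edgeR) was larger than that of Cxcl10, so the 2 genes did not move by the same factor. In footprints Art3 was at 48.8 and 39.1 CPM in KO and 20.4 and 23.9 CPM in SCR, a log2 fold change of 0.88 (adjusted p = 0.0565, edgeR). Its translational efficiency fell by 1.00 on the log2 scale (adjusted p = 0.0342, edgeR), a call that ended without the first KO or the second SCR input RNA library, when 0 genes passed. The part of Art3 reads in the Cxcl10 counts was not tested.

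The genes that induce, transmit and answer interferon beta were mostly lower or not called in KO input RNA while Cxcl10 was higher. Of 18 sensing and induction genes tested, Cgas, the sensor of cytosolic DNA, rose (0.40 on the log2 scale), and 4 fell, among them Ddx58, which encodes RIG-I (-0.84), and Sting1, the adaptor of cGAS (-0.41). Of 19 genes of interferon receptors, JAK-STAT and IRF signalling, 5 fell and none rose, among them Irf9 at -0.55 and Stat3 at -0.53. Of 17 NF-kappaB genes, 5 fell and none rose, led by Nfkbie (-0.75) and Tnip1 (-0.48), both restraints of the pathway, with Nfkb2 at -0.32. Of 28 interferon-stimulated genes, 7 fell and none rose, with Xaf1 at -1.56, Dtx3l at -0.89, Parp14 at -0.82 and Ifitm3 at -0.66. The list medians were -0.12, -0.18, -0.22 and -0.15, beside -0.01 over all genes tested, and 7.21% of all genes fell. None of the 6 other chemokines, the 2 other interferon genes or the 5 blood-cell markers that passed the filter was called in input RNA. Of 8 receptors, scavengers and proteases of these chemokines, Adam10 fell (-0.26) and the rest were not called. Interferon-stimulated genes that fell numbered 3 with no filter on low counts, 4 without the first KO, 2 without the first SCR and 5 without the second SCR library. In the same 4 settings, in that order, 2, 2, 2 and 2 of the JAK-STAT genes fell, 2, 3, 1 and 1 of the NF-kappaB genes and 2, 2, 1 and 3 of the sensing genes.

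On ribosomes the same lists stood differently. Of 30 interferon-stimulated genes tested in footprints, Ifit3b (1.14) and Ifi27 (0.52) rose and none fell, with a list median of 0.30 beside 0.01 over all genes. Ddx58 rose (0.74) as 1 of 16 sensing genes, none of 18 JAK-STAT genes was called and Nfkbia, the inhibitor of NF-kappaB, fell (-0.62) as 1 of 16. In translational efficiency Ddx58 (1.54), Ifih1, which encodes MDA5 (0.90), Ifi27 (1.07) and Herc6 (0.54) rose, as 2 of 18 sensing and 2 of 33 interferon-stimulated genes, and 1 of 19 JAK-STAT genes rose, beside 0.788% of all genes. No gene passed in translational efficiency without the first KO or the second SCR input RNA library, and 3 passed without the first SCR input RNA library. None of the interferon-stimulated genes was called in footprints once any 1 footprint library was left out.

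In the tumours, Ifnb1 was lower in the KO library by the largest factor of the 5, Cxcl10 and Cxcl11 were lower by smaller factors, and Cxcl9 and Cxcl16 were at like levels in both. There is 1 library per genotype, so no difference below has a replicate check or a test, and the 95% intervals (exact Poisson for a level, exact binomial for a share and conditional binomial for a ratio) cover counting error only. A ratio is KO over SCR CPM. Over all kept cells Ifnb1 was at 101 CPM in SCR and 35.4 CPM in KO (ratio 0.349, interval 0.335 to 0.364). A UMI of Ifnb1 was in 9.73% of SCR and 3.9% of KO cells, and in 6.64% and 2.43% after each cell was thinned to 2000 UMIs. Positive cells were fewer in KO, and each held 11.9 Ifnb1 UMIs on average in SCR and 9.27 in KO. These averages are not scaled to depth, and Ifnb1-positive cells had medians of 12978 UMIs in SCR and 11965 in KO. The gene was concentrated in few cells, since 114 SCR cells (1.38%) and 39 KO cells (0.466%) held 50% of its UMIs, and 302 against 92 cells had at least 10.

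Cxcl10 was at 976 CPM in SCR and 714 CPM in KO (ratio 0.731, interval 0.724 to 0.739), with a UMI in 48.8% and 43.2% of cells. Cxcl11 was at 10.9 and 8.37 CPM (ratio 0.769, interval 0.698 to 0.847). The ratio of Cxcl9 was 0.987 (217 and 214 CPM, interval 0.967 to 1.01) and that of Cxcl16 was 0.995 (295 and 293 CPM, interval 0.978 to 1.01). Of 14323 genes with at least 100 UMIs, 1.72% were lower and 2.19% higher in KO past 1.5-fold, and their median ratio was 1.04. Of the 5 members, Ifnb1 alone was past 1.5-fold. In such sums, as in bulk samples, fewer cells of a type and less RNA per cell cannot be told apart, so levels were also compared within clusters.

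The cells fell into 24 clusters, of which 18 had at least 100 cells in each library. Clusters were named by marker genes or by leading genes, though Fcgr4 was not among the 10 leading genes by fold of the Cd300e Fcgr4 cluster. They were made without the 5 members. Ifnb1 was nevertheless among the 10 leading genes by fold of the Ifit Rsad2 and the Cd300e Fcgr4 macrophage-like clusters, and Cxcl9 among those of the latter, so the order of levels across clusters is a description. The doublet caller marked no cell and had not worked, and doublets were kept. Macrophage RNA was present outside macrophages: the 12 macrophage markers summed to 15872 CPM in SCR and 14370 CPM in KO CD8 T cell-like cells, and to 453 and 919 CPM in NK cell-like cells, beside 26781 and 26932 CPM in the Cd300e Fcgr4 cluster.

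**Figure D2:**
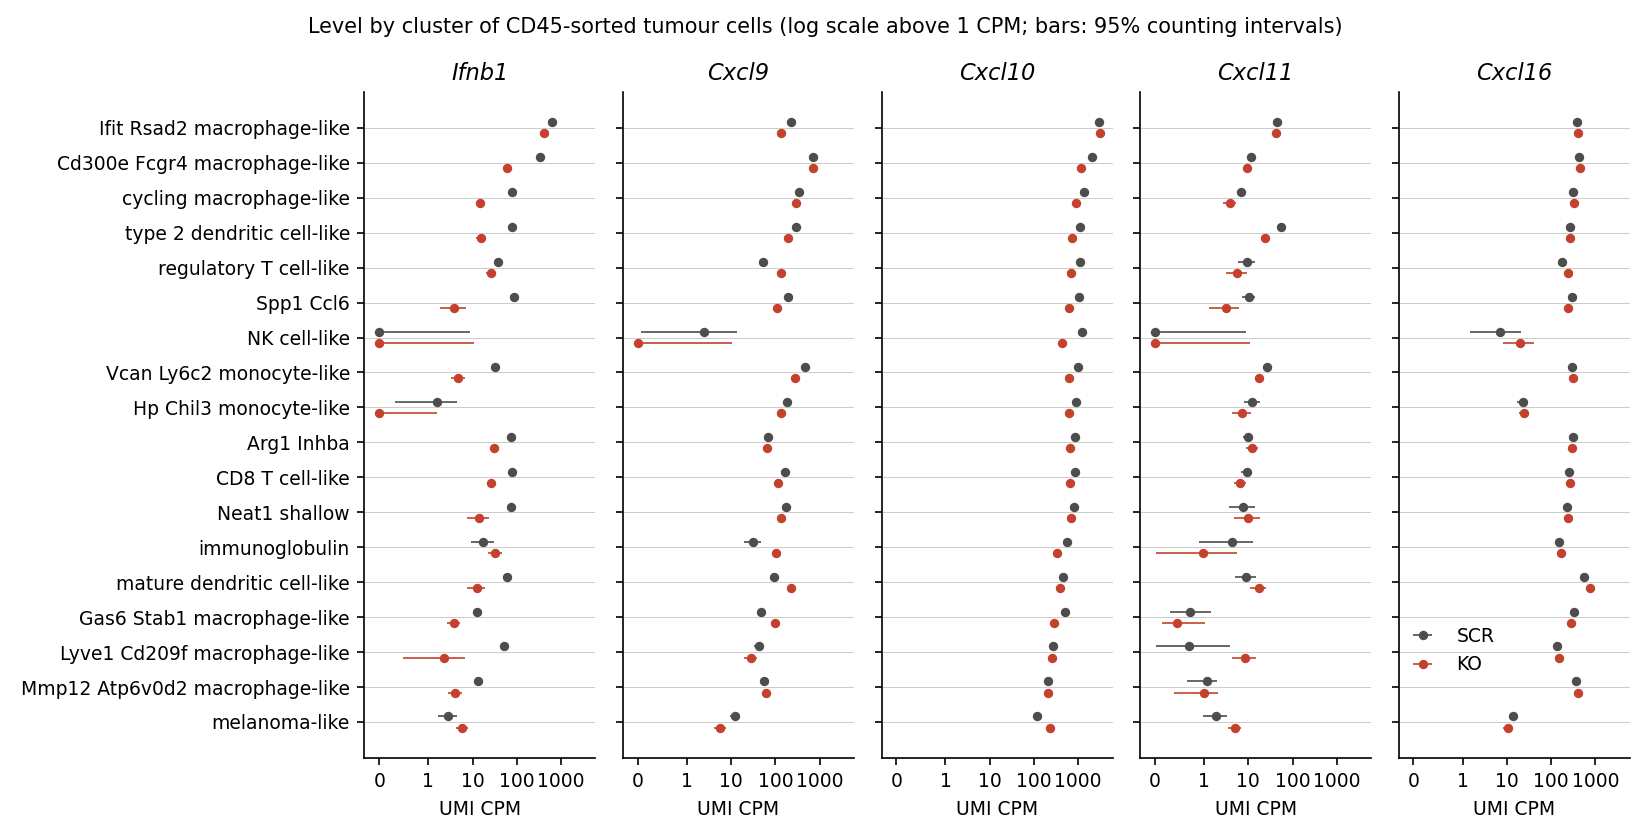
UMI level in CPM (axis logarithmic above 1 CPM) of each gene in the 18 clusters of at least 100 cells per library, SCR in grey and KO in red, with 95% counting intervals; clusters are ordered by Cxcl10. Ifnb1 is highest in the Ifit Rsad2 cluster (619 and 410 CPM) and at 0 in NK cell-like cells, whereas Cxcl16 is highest in mature dendritic cell-like cells (551 and 747 CPM).

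Among the 18 clusters, Ifnb1 was highest in the Ifit Rsad2 macrophage-like cluster, where interferon-stimulated genes lead, at 619 CPM in SCR and 410 CPM in KO (ratio 0.663, interval 0.623 to 0.705). There 44.5% of SCR and 30.5% of KO cells had a UMI. The Cd300e Fcgr4 macrophage-like cluster came next at 326 CPM in SCR and 59.5 CPM in KO (ratio 0.182, interval 0.167 to 0.199), with 30.2% and 8.36% of cells positive at median depths of 13171 and 10950 UMIs. These 2 clusters held 29.6% and 33.6% of all Ifnb1 UMIs in SCR, and 52.6% and 21.5% in KO. Among the next clusters, the Spp1 Ccl6 cluster and those of CD8 T cell-like, Arg1 Inhba, cycling macrophage-like and type 2 dendritic cell-like cells were at 73.7 to 87.1 CPM in SCR, with intervals that overlapped between neighbours, and at 3.82 to 29.8 CPM in KO. NK cell-like cells had 0 UMIs of Ifnb1 in both libraries, at median depths of 2853 and 2705 UMIs. CD8 T cell-like cells with no UMI of 6 macrophage genes, 75 in SCR and 92 in KO, also had none. They were shallow, at medians of 2663 and 2370 UMIs against 9862 and 9574 in the whole cluster. Regulatory T cell-like cells of the same kind had 4 Ifnb1 UMIs in 2 of 42 SCR cells and 0 in 28 KO cells.

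The background of such ratios was read from all genes with at least 100 UMIs in a cluster, as the share past 1.5-fold higher and lower in KO. In the macrophage-like clusters it was 0.587% and 1.42% (Gas6 Stab1), 1.41% and 1.33% (Cd300e Fcgr4), 0.947% and 1.01% (Mmp12 Atp6v0d2), 1.47% and 1.86% (Ifit Rsad2), 0.866% and 1.0% (cycling) and 1.63% and 2.51% (Lyve1 Cd209f). It was 1.38% and 0.9% in Vcan Ly6c2 and 2.03% and 0.738% in Hp Chil3 monocyte-like cells, 2.85% and 1.47% in the Arg1 Inhba, 1.17% and 1.94% in the Spp1 Ccl6 and 2.69% and 2.3% in the shallow Neat1 cluster. Dendritic cell-like clusters had 1.44% and 1.41% (type 2) and 2.92% and 1.78% (mature). The Gas6 Stab1 cluster had the smallest share of genes higher in KO, and the immunoglobulin cluster the largest. Lymphoid clusters had 0.986% and 1.14% (CD8 T cell-like), 2.18% and 1.82% (regulatory T cell-like) and 3.93% and 3.69% (NK cell-like), melanoma-like cells 3.34% and 2.75% and the immunoglobulin cluster 11.2% and 3.4%.

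Ifnb1 was lower in KO in each cluster that reached the UMI minimum, but not in every cluster. Of 13 clusters with at least 100 Ifnb1 UMIs over both libraries, 12 were lower in KO past 1.5-fold. None of the 13 had a ratio above 1, with a median ratio of 0.207 and a range of 0.0439 to 0.686. The SCR library alone can carry a cluster past this minimum, so the count is a description. Under the minimum, the immunoglobulin cluster was higher in KO, with 12 SCR and 33 KO UMIs (17.6 and 32.6 CPM). Also under it, the Lyve1 Cd209f (75 and 3 UMIs) and Hp Chil3 (3 and 0 UMIs) clusters were lower. The Spp1 Ccl6 cluster had 339 SCR and 10 KO UMIs (87.1 and 3.82 CPM, ratio 0.0439, interval 0.0209 to 0.0817). In the Vcan Ly6c2 monocyte-like cluster the values were 32.4 and 4.74 CPM, and in mature dendritic cell-like cells 59.7 and 12.3 CPM. Within the Ifit Rsad2 cluster the ratio was 0.254 when cells of at least 1000 UMIs were clustered, which drew its borders otherwise. Melanoma-like cells, left in the sort, had 18 SCR and 43 KO UMIs (ratio 2.08, interval 1.18 to 3.83), but the 43 lay in 2 of 253 cells and the 18 in 5 of 187.

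**Figure D3:**
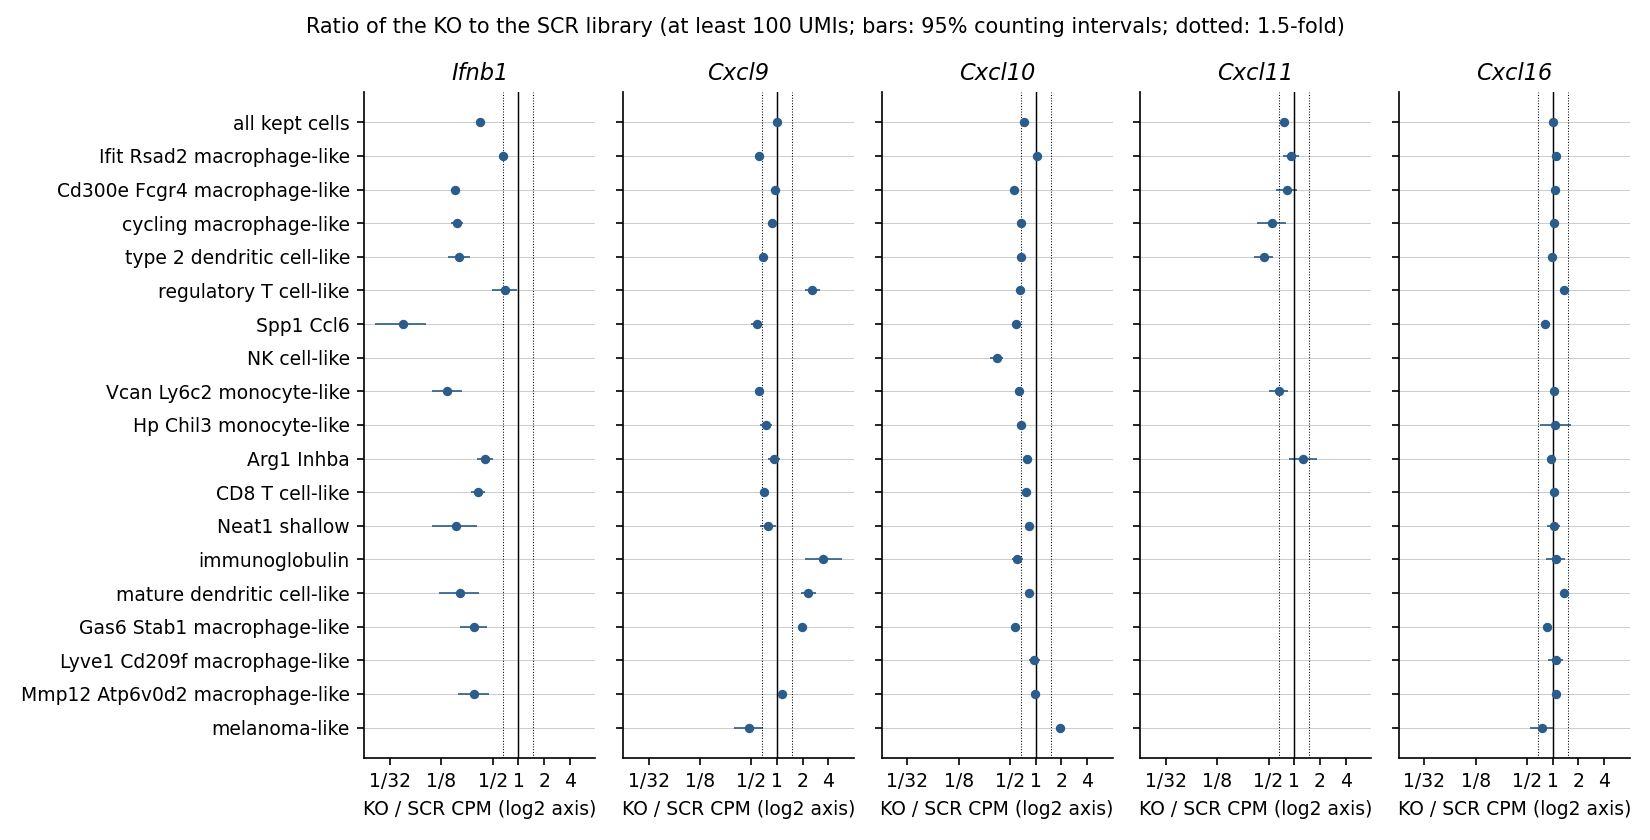
Ratio of KO to SCR CPM (log2 axis) of each gene over all kept cells and in each cluster with at least 100 UMIs of the gene, with 95% counting intervals; dotted lines mark 1.5-fold. Ifnb1 is below 1 in all 13 clusters shown, Cxcl10 in 16 of 18, and Cxcl16 stays between 0.753 and 1.37 in 17.

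Other type I interferon genes were lower as well, while interferon-stimulated genes were not lower as a list. Of 5 other interferon genes with at least 100 UMIs over all kept cells, Ifna1 (4.28 and 1.01 CPM), Ifna2 (4.64 and 1.66), Ifna4 (3.97 and 1.36) and Ifna5 (2.23 and 0.374) were lower in KO past 1.5-fold, and Ifng was at 13.8 CPM in both. The Ifna genes are near-identical copies between which reads may be split, so their single values are uncertain. In the Cd300e Fcgr4 cluster Ifna2 was at 18.4 and 3.12 CPM, and Ifna4 at 15.7 and 0.0916 CPM with a single KO UMI. Of 34 interferon-stimulated genes over all kept cells, 1 was higher (Ifi44, ratio 1.51) and none lower past 1.5-fold, with a median ratio of 1.07 beside 1.04 over all genes. The lowest were Mx2 (0.726) and Ifit1 (0.770).

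The 2 macrophage-like clusters richest in Ifnb1 differed in this list, of which several genes also lead the first cluster. In the Ifit Rsad2 cluster 3 of 34 interferon-stimulated genes were higher and none lower past 1.5-fold, 32 had a ratio above 1 and the median ratio was 1.28 beside 1.01 over all genes. In the Cd300e Fcgr4 cluster none was higher and 8 were lower, with a median ratio of 0.937 beside 1.02 over all genes. The 8 included Rsad2, which encodes viperin (423 and 158 CPM), Ifit2 (259 and 102 CPM), Mx2 (89.9 and 22.6 CPM) and Isg15, a ubiquitin-like modifier (943 and 603 CPM). The difference between the clusters was not tested, and since listed genes lead the first cluster, it is a description. Cluster borders were not fixed either: 72.6% of cells kept their cluster name when cells of at least 1000 UMIs were clustered.

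**Figure D4:**
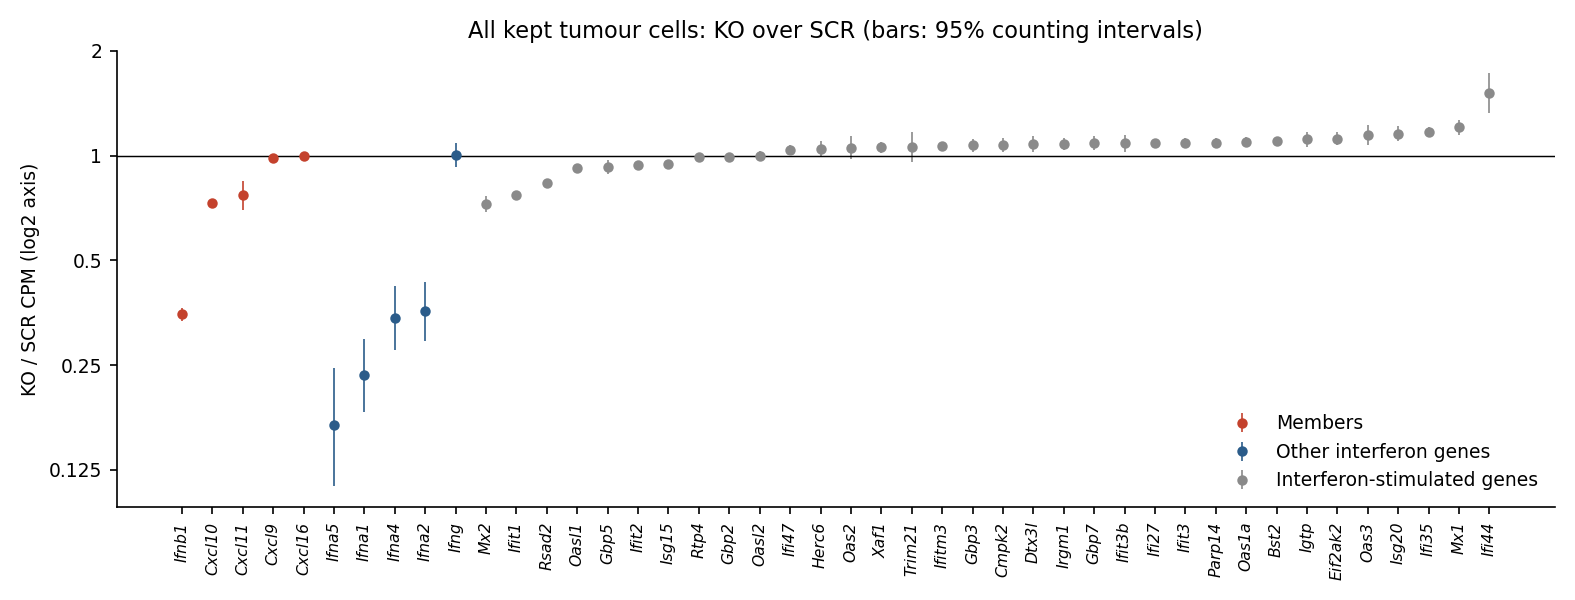
Ratio of KO to SCR CPM over all kept tumour cells (log2 axis) of the 5 genes (red), of other interferon genes (blue) and of interferon-stimulated genes (grey), with 95% counting intervals. Ifnb1 and 4 Ifna genes lie between 0.168 and 0.358, whereas the interferon-stimulated genes lie between 0.726 and 1.51.

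Cxcl10 was also highest in the Ifit Rsad2 cluster, and there it was not lower in KO: 2937 CPM in SCR and 3069 CPM in KO (ratio 1.04, interval 1.02 to 1.07), with a UMI in 87.8% and 83.4% of cells. That ratio was 0.907 when cells of at least 1000 UMIs were clustered. In the Cd300e Fcgr4 cluster Cxcl10 was at 2065 and 1140 CPM (ratio 0.552, interval 0.54 to 0.564), with 74.5% and 58.5% of cells positive. Cycling macrophage-like cells were at 1358 and 903 CPM and type 2 dendritic cell-like cells at 1084 and 733 CPM. Of 18 clusters, 8 were lower in KO past 1.5-fold, 1 was higher, and the median ratio was 0.679. No cluster lacked the gene. The smallest shares of positive cells were 18.1% and 12% in the immunoglobulin cluster, whose cells had medians of 2371 and 2456 UMIs.

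Lymphoid cells carried Cxcl10 UMIs at levels near those of phagocytes, at 839 and 648 CPM in CD8 T cell-like and 1077 and 704 CPM in regulatory T cell-like cells. NK cell-like cells were at 1237 CPM in SCR and 431 CPM in KO (ratio 0.348, interval 0.288 to 0.418), with a UMI in 25.4% and 25.5% of cells. In those cells Cxcl9 was at 2.37 and 0 CPM. Of the 12 macrophage markers, 9 had UMIs there in SCR (Csf1r, Trem2 and Arg1 were at 0) and 12 in KO, and 46.8% and 49.1% of the cells had a UMI of any of them. Among cells with no UMI of 6 macrophage genes, Cxcl10 was at 1404 CPM in 86 SCR and 406 CPM in 71 KO NK cell-like cells. It was at 2179 CPM in 75 SCR and 407 CPM in 92 KO CD8 T cell-like cells, of which 36% and 23.9% had a UMI. These CD8 T cell-like cells also held Cxcl9, 83 UMIs in 3 SCR cells and 1 UMI in KO. That was 332 CPM in SCR, beside 162 CPM in the whole SCR cluster, so the filter did not remove Cxcl9 from them. In regulatory T cell-like cells of the same kind, 42 in SCR and 28 in KO, Cxcl10 was at 1696 and 1552 CPM (ratio 0.915, interval 0.783 to 1.07). The lower KO value of that cluster was thus not seen beyond counting error in them. The part of free RNA or of doublets in these lymphoid values was not tested.

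Melanoma-like cells were the 1 cluster in which Cxcl10 was higher in KO past 1.5-fold, though the cluster had the lowest SCR level of the 18. Cultured melanoma cells also had more Cxcl10 in KO, by 0.55 (input RNA) and 0.71 (footprints) on the log2 scale. Those calls were lost when some single libraries were left out. In the melanoma-like cluster Cxcl10 was at 117 CPM in SCR and 230 CPM in KO (ratio 1.96, interval 1.80 to 2.14). A UMI was in 52.9% of 187 and 58.1% of 253 cells, or 15.3% and 29.1% after thinning to 2000 UMIs. The 7 melanoma markers, among them Pmel, Dct and Tyrp1, summed to 12396 CPM in SCR and 12116 CPM in KO. The 12 macrophage markers summed to 1331 and 1143 CPM. In melanoma-like cells with no UMI of 6 macrophage genes, 96 in SCR and 167 in KO, Cxcl10 was at 81.8 and 203 CPM, Cxcl9 at 0 and 0.397 CPM and Ifnb1 at 0.295 and 0 CPM. Of 29 interferon-stimulated genes in the whole cluster, 4 were higher and none lower past 1.5-fold, beside 3.34% higher and 2.75% lower of all genes. The list median was 1.09 beside 1.03 over all genes. Of 13 other chemokines, 2 were higher and 6 lower past 1.5-fold. The 4 higher interferon-stimulated genes were Igtp (15.1 and 36.0 CPM), Ifi47 (13.4 and 30.8), Gbp7 (20.8 and 32.2) and Mx2 (8.18 and 13.8). All 4 encode interferon-inducible GTPases. Art3 was at 33.0 and 45.0 CPM in the cluster.

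Among the 18 clusters, Cxcl9 was highest in the Cd300e Fcgr4 macrophage-like cluster, at 723 CPM in SCR and 691 CPM in KO (ratio 0.956, interval 0.926 to 0.988), with 58.9% and 58.8% of cells positive. Its ratio there ran from 0.914 to 1.09 under other filters and clusterings, on both sides of 1. When cells of at least 1000 UMIs were clustered, Cxcl9 was highest in the Ifit Rsad2 cluster instead. Of these 18, Vcan Ly6c2 monocyte-like cells followed at 460 and 283 CPM (ratio 0.616), then cycling macrophage-like cells at 337 and 292 CPM. The small fibroblast-like cluster was at 476 and 357 CPM. The Ifit Rsad2 cluster, highest for Ifnb1 and Cxcl10, was at 222 and 137 CPM. Higher values in KO stood in other clusters: mature dendritic cell-like cells were at 94.0 and 220 CPM (ratio 2.34), regulatory T cell-like cells at 52.8 and 137 CPM (ratio 2.60) and Gas6 Stab1 macrophage-like cells at 48.3 and 95.7 CPM (ratio 1.98). Regulatory T cell-like cells with no UMI of 6 macrophage genes, 42 in SCR and 28 in KO, had 0 UMIs of Cxcl9 in both libraries. They were shallow, at medians of 4015.5 and 4125 UMIs against 11120 and 10548 in the whole cluster. The part of macrophage RNA in the value of that cluster was not tested. Of 16 clusters tested, 4 were higher and 4 lower past 1.5-fold and 8 within it. The immunoglobulin cluster, with the largest share of genes higher in KO, is 1 of the 4. Melanoma-like cells were at 12.1 and 5.62 CPM, and NK cell-like cells had 1 UMI.

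Cxcl11 was sparse, with 1027 SCR and 716 KO UMIs. It was highest in the Ifit Rsad2 cluster (45.3 and 41.3 CPM, ratio 0.910, interval 0.736 to 1.12) and in type 2 dendritic cell-like cells (54.1 and 23.6 CPM, ratio 0.437, interval 0.336 to 0.564), whose SCR intervals overlapped. Vcan Ly6c2 monocyte-like cells were at 26.1 and 17.1 CPM, and the Cd300e Fcgr4 cluster, so high in Cxcl9, at 11.3 and 9.16 CPM. Of 6 clusters with at least 100 UMIs, 3 were lower in KO past 1.5-fold and none higher. Melanoma-like cells had 12 SCR UMIs in 7 cells and 36 KO UMIs in 24 cells (1.89 and 4.93 CPM, ratio 2.61, interval 1.33 to 5.52).

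Cxcl16 was the broadest of the 5, with a UMI in 67.3% of SCR and 64.6% of KO cells, and varied least between the libraries. It was highest in mature dendritic cell-like cells, at 551 CPM in SCR and 747 CPM in KO (ratio 1.36, interval 1.24 to 1.49), with 87.8% and 95.9% of cells positive; thinned to 2000 UMIs the ratio was 1.51. The Cd300e Fcgr4 (417 and 449 CPM), Ifit Rsad2 (376 and 409 CPM) and Mmp12 Atp6v0d2 (367 and 401 CPM) macrophage-like clusters followed. None of 17 clusters was past 1.5-fold, 12 had a ratio above 1 and the median ratio was 1.05. Melanoma-like cells (14.01 and 10.55 CPM), NK cell-like cells (7.12 and 20.2 CPM) and Hp Chil3 monocyte-like cells (22.8 and 24.4 CPM) were at the low end, with 8.72% and 8.94% of the last positive at medians of 5254 and 4826 UMIs.

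Among the receptors, Cxcr3 was at 3.95 and 4.00 CPM over all kept cells, with 43.9 and 38.0 CPM in regulatory T cell-like and 16.4 and 15.2 CPM in CD8 T cell-like cells. NK cell-like cells had 24 SCR and 6 KO UMIs of Cxcr3 (57.0 and 17.3 CPM). Cxcr6, the receptor of CXCL16, was at 2.76 and 4.53 CPM over all kept cells, the 1 gene of 10 receptors, scavengers and proteases higher past 1.5-fold, while 2 were lower, the scavenger Ackr3 (1.72 and 1.05 CPM) and the protease Mmp9 (2.68 and 0.924 CPM). It was at 497 and 399 CPM in the 54 gamma-delta T cell-like cells and at 33.1 and 49.9 CPM in CD8 T cell-like cells (ratio 1.51, interval 1.24 to 1.83). Ifnar1 and Ifnar2 were at 72.3 and 65.3 CPM and at 198 and 197 CPM. Ifng, the main inducer of Cxcl9, was at 800 and 595 CPM in NK cell-like cells (ratio 0.744, interval 0.623 to 0.888) and 151 and 130 CPM in CD8 T cell-like cells. In NK cell-like cells with no UMI of 6 macrophage genes it was at 682 and 776 CPM (ratio 1.14, interval 0.916 to 1.41), the other direction.

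Over all kept cells, Ifnb1 and Cxcl10 overlapped within cells. Of cells with an Ifnb1 UMI, 93.3% in SCR and 93.9% in KO had Cxcl10, against 44.1% and 41.1% of the other cells, and Cxcl10 was at 3002 and 2825 CPM in the former and 694 and 603 CPM in the latter. Ifnb1-positive cells were deeper, at medians of 12978 and 11965 UMIs against 8389 and 7820. Within the Cd300e Fcgr4 cluster, where depths were closer (13682 against 13058 UMIs in SCR), Cxcl10 was at 3800 CPM in Ifnb1-positive and 1265 CPM in other SCR cells, and at 3187 and 934 CPM in KO. Cxcl16 there was at 423 and 414 CPM in SCR, close to equal. The Ifit Rsad2 cluster, highest in Ifnb1, differed less. Cxcl10 was at 3440 CPM in its Ifnb1-positive and 2425 CPM in its other SCR cells, and at 3546 and 2827 CPM in KO. Cxcl11 had a UMI in 18.9% and 18.8% of these SCR cells and in 16.4% and 16.3% of these KO cells. Cxcl9 was at 173 and 272 CPM in SCR but at 184 and 113 CPM in KO.

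Over 36 values of log2(CPM + 1), 18 clusters in 2 libraries that share depth and free RNA, the genes most like each member among 14059 were named by Pearson's r, as a description. For Ifnb1 these were Tnfsf15 (r = 0.817), Plekha4, Sdc4, Rsad2 and Gm57293 (0.725). For Cxcl9 they included Slamf8 (0.898), Klra2, Rnd3 and Siglece, and for Cxcl10 Ifih1 (0.810), Ppp1r15a, Bbc3, Oasl1 and Calhm6. For Cxcl11 they were Tgtp2 (0.828), Mx1, Ifi205, Slc4a11 and Stat2, and for Cxcl16 Basp1 (0.936), Tnfrsf11a, Pdlim4, Bcl2a1a and Rnf180. Between members r ran from 0.269 for Cxcl10 and Cxcl16 to 0.706 for Cxcl9 and Cxcl16.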

How the data were processed

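The authors deposited expected counts, whole numbers without normalization, for each gene and library. The submitters' processing notes name STAR 2.7.10a, StringTie 2.1.7 and GRCm39. The columns headed POOL are KO by elimination, all others being headed SCR. A table deposited by the authors holds, per gene, the ratio of footprints to input RNA, a log2 fold change and its p-value. The labels do not name the tool behind it. Another, which has no header, lists reading frames, and counts of codons and blocks were read from its entries. UMI counts of single cells are from Cell Ranger 8.0.1 (deposited, per the file headers) and come without cell types. T-cell receptor sequences of blood hold no value of these genes and were not used.

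The members and gene lists were chosen with earlier results of these data known. Counts were fitted over all genes with edgeR 4.0.16 in R 4.3.3 (TMM scaling, filterByExpr, quasi-likelihood F test, p adjusted by Benjamini and Hochberg, threshold 0.05), separately for each assay, and translational efficiency as an interaction. DESeq2 1.42.0, no filter, the replicate number as a block and leaving out each library were alternatives. Tested on simulated data, genes changed by 1 on the log2 scale were found in 99% (input RNA), 97% (footprints) and 59% (translational efficiency) of cases. False calls were 1.97%, 6.19% and 4.67% of all calls. The simulation gave every gene the same spread and changed only well-covered genes, so these shares do not give the power in the real libraries. Replicate numbers did not pair libraries (r of deviations from -0.0277 to 0.0666). Cells with at least 500 UMIs, 300 genes and under 10% mitochondrial UMIs were clustered with scanpy 1.11.5 (2000 variable genes without the members, 30 components, 15 neighbours, Leiden resolution 1). The markers were fixed from general knowledge. The 5 members, Mettl5, up to 4 called genes of each list, the receptors, Ifng and the 5 most alike genes were named by rule; Art3 and other genes were named after their values were seen. Some genes that the rule allows are not reported here.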

Additional observations from a re-analysis of the deposited data

Results flagged for a closer look

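Between cultured cells, all kept tumour cells and melanoma-like cells, the KO against SCR difference of Cxcl10, Ifnb1 and Cxcl11 had opposite signs, and none of these contrasts between cell groups was tested. Cxcl9 and Cxcl16 also had ratios on both sides of 1 among the tumour clusters. The log2 ratio of Cxcl10 was 0.55 in input RNA and 0.71 in footprints of cultured melanoma cells, 0.97 in melanoma-like cells of the tumours and -0.45 over all kept cells of the tumours. The log2 ratio of Ifnb1 was -1.52 over all kept cells and 1.06 in melanoma-like cells. There the 43 KO UMIs lay in 2 cells, fewer cells than held the SCR UMIs. Melanoma-like cells with no UMI of 6 macrophage genes had 1 Ifnb1 UMI in SCR and 0 in KO. The log2 ratio of Cxcl11 was -0.38 over all kept cells and 1.39 in melanoma-like cells, on 12 SCR and 36 KO UMIs. The single-cell values come from 1 library per genotype.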

How the results depend on the processing

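With DESeq2 size factors every value kept its side of its threshold. The count of genes called in input RNA (3358) was 1193 with no filter on low counts and 1031 to 4251 without 1 library, lowest without the first SCR library (1031) and the second (1417). The count in footprints (387) was 755 with no filter, 1381 with DESeq2, 25 to 128 without 1 library, and 0 with the replicate block in edgeR, where 3495 genes had an unadjusted p below 0.05. In translational efficiency (973) it was 1863 with DESeq2, 363 with the replicate block and 0 to 1187 without 1 library: 0 without the first KO or the second SCR input RNA library (3645 and 3804 genes at an unadjusted p below 0.05) and 3 without the first SCR input RNA library. The replicate block left the Cxcl10 log2 fold change at 0.72 in footprints with an adjusted p of 0.0998 in edgeR; numbers do not pair these libraries, so no weaker effect is read from it. Cxcl10 in footprints had an adjusted p of 1.89e-09 with DESeq2. Its translational efficiency ran from -0.012 to 0.26 without 1 library and changed sign without the first KO input RNA library (-0.012) or the first SCR footprint library (-0.0071). Translational efficiency of Cxcl16 could not be estimated, since it had no footprint. In single cells, with at least 1000 UMIs per cell the ratio of Ifnb1 in the Ifit Rsad2 cluster was 0.254, of Cxcl9 in the Cd300e Fcgr4 cluster 0.992 and of Cxcl10 in the Ifit Rsad2 cluster 0.907, below 1. The Cxcl9 ratio in the Cd300e Fcgr4 cluster was above 1 with up to 20% mitochondrial UMIs (1.04), with the members among the variable genes (1.08) and at a higher Leiden resolution (1.09). Thinned to 2000 UMIs per cell, ratios over all kept cells were 0.366 for Ifnb1, 1.03 for Cxcl9, 0.688 for Cxcl11 and 1.03 for Cxcl16; they were 0.720 for Ifnb1 in the Ifit Rsad2, 0.914 for Cxcl9 in the Cd300e Fcgr4 and 1.51 for Cxcl16 in the mature dendritic cell-like cluster. Without the 6% of cells of highest doublet score, chosen after seeing the data, Cxcl10 was at 0.740 over all kept cells and 1.01 in the Ifit Rsad2 cluster. 2 further settings were added after seeing the data, leaving out shared barcodes and lymphoid cells with macrophage UMIs, and moved no ratio beyond counting error. At up to 20% mitochondrial UMIs no cluster took the name Ifit Rsad2, so Ifnb1, Cxcl10 and Cxcl11 have no value there; keeping marked doublets equals the values given, since none was marked.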
